A study of Mus musculus with 12 samples.

Results

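The mitochondrial respiratory chain and ATP synthase were followed at the transcript level through 91 nuclear genes in pituitary tumors of POMC KO mice and in normal mouse pituitary. The genes were chosen by symbol, as those beginning with Nduf, Uqcr, Cox4 to Cox8 or Atp5 together with Sdha, Sdhb, Sdhc, Sdhd and Cyc1. They were 91 of the 18194 genes that a probe set of the array names alone. A probe set is a group of short oligonucleotides designed against one transcript region, and where a gene had several, the one with the highest mean over all arrays stood for it. Of the 91 genes, 36 belong to complex I, 8 are Ndufaf assembly factors of complex I, 4 belong to complex II, 9 to complex III with Cyc1, 17 to complex IV and 17 to complex V. Of these, 88 were bright enough to be tested. The exceptions were Cox4i2 and Cox7b2, at most 4.87 and 3.34 on the log2 scale in any sample, and Ndufb4, whose brighter probe sets each name several genes.

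Total RNA was hybridized to 12 Affymetrix mouse arrays, and the values are log2 signals. Pituitary tumors with heterozygous loss of POMC account for 8 arrays, tumors with homozygous loss for 2 and normal mouse pituitary for 2. The tumors arose spontaneously, no group was treated, and age, sex and strain were not given for the arrays. Within the 5 pairs of consecutively numbered tumor arrays the 91 genes differed by a median of 0.030 to 0.052 log2 units. Between arrays of different heterozygous pairs the median was 0.094 to 0.188, so each pair was averaged and counted as 1 sample. The pairing was read from the values, and the submitters' own design text speaks of a separate mouse for every array. This left 4 heterozygous samples, 1 homozygous sample and 2 normal samples. The methods speak of a pooled normal reference, so each normal array may hold RNA of more than one gland, which the labels do not say.

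Pomc itself, the targeted gene, read 15.25 ± 0.07 (SD, n = 4) in the heterozygous tumors, 15.09 in normal pituitary and 7.18 in the homozygous tumor. Gh and Prl transcripts were bright in every sample, with Gh between 13.32 and 14.86 and Prl between 13.91 and 15.04. The other tested somatotroph marker differed from normal pituitary by -3.13 in heterozygous tumors and by -3.22 in the homozygous tumor. The cell makeup was not equal between groups. All 10 macrophage markers rose in heterozygous tumors, with a list mean of 8.33 to 8.99 against 6.75 to 6.95 in normal pituitary and 8.00 in the homozygous tumor. All 4 gonadotroph and all 3 thyrotroph markers fell in heterozygous tumors. Of 5 melanotroph and corticotroph markers tested, 1 rose and 2 fell there at a limma adjusted p under 0.05. So did 1 of 4 glial and posterior lobe markers, at -3.225, and 1 of 6 endothelial markers, at -1.423, both lower. At that threshold 12.7% of all genes rose and 11.5% fell. These are bulk samples, in which fewer cells of a type and less RNA per cell cannot be told apart, and the part of these shifts in the values below was not tested.

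Complexes I to IV pass electrons from NADH and succinate through coenzyme Q and cytochrome c to oxygen. Complexes I, III and IV pump protons across the inner mitochondrial membrane, and complex II does not. Complex V, the ATP synthase, uses the returning protons to make ATP. Most subunits are encoded in the nucleus and a few catalytic ones in mitochondrial DNA, which no probe set used here names. Several small subunits of complexes IV and V are encoded by more than one gene, with forms restricted to muscle, testis or lung.

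Most of the chain differed little between tumors and normal pituitary. The median log2 difference between heterozygous tumors and normal pituitary over the 88 genes was -0.015, beside 0.002 over all 12305 genes tested. The median size of the difference, sign ignored, was 0.174, beside 0.262 over all genes. In other mitochondrial lists it ran from 0.052 for uncoupling and superoxide defence to 0.246 for pyruvate dehydrogenase, with 0.147 for the mitochondrial ribosome. In 8 housekeeping genes it was 0.121, so a small size was not particular to the chain. In 80 of the 88 genes (90.9%) the difference lay within 0.5 log2 units of 0, beside 73.9% of all genes. Absence of a call does not show equality, but the 95% confidence interval lay wholly within a 2-fold change in 85 of the 88 genes, beside 78.2% of all genes. The spread between the 4 heterozygous tumors was also smaller, with a median SD of 0.114 for these genes and 0.162 for all genes.

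With limma and a Benjamini-Hochberg adjusted p under 0.05, 7 of the 88 genes (7.95%) were called in heterozygous tumors, where 24.2% of all genes tested were called. Cox6b2 and Ndufaf2 rose, where 12.7% of all genes rose. Cox6c, Cox7c, Atp5g1, Atp5l and Atp5md fell, where 11.5% of all genes fell. Cox6b2 alone of the 88 was called with a fold change over 2, which 10.1% of all genes met. All 4 heterozygous samples lay above both normal samples in 17 genes (19.3%), beside 25.4% of all genes, and below both in 21 genes (23.9%), beside 25.6%. At an unadjusted p under 0.05, 24 of the 88 genes (27.3%) passed, beside 39.1% of all genes. In the homozygous tumor 0 of the 88 genes were called against normal pituitary by limma, where 3.18% of all genes were called (1.59% higher, 1.58% lower, and 2.73% with a fold change over 2), and 5 passed at an unadjusted p under 0.05, beside 19.2% of all genes. Between the homozygous and the heterozygous tumors 0 of 88 were called and 0 passed unadjusted, where 0.276% of all genes were called and 10.6% passed unadjusted.

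**Figure D1:**
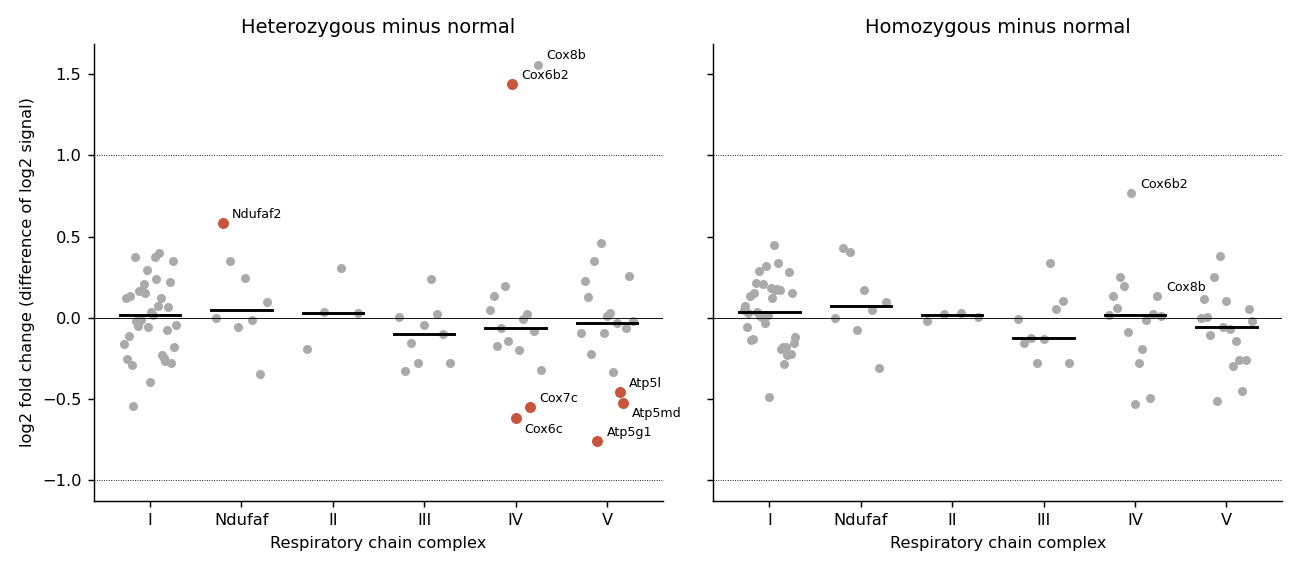
Log2 fold change of the 88 tested genes against normal pituitary by complex, in heterozygous tumors (left) and in the homozygous tumor (right). Each point is 1 gene, black lines are medians, dotted lines mark a 2-fold change and colored points are called by limma. The 7 called genes lie in complex IV, complex V and the Ndufaf assembly factors, and no gene is called on the right.

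The 7 calls rested on few samples. Without normal sample 1, Cox6c was the only one of the 88 genes called, while 9.09% of all genes still were. Without normal sample 2, 0 were called, beside 10.7% of all genes. Without heterozygous sample 2, Atp5g1 and Cox6c remained, beside 16.8% of all genes. The plot of fold changes by complex shows how narrow most groups were, with medians between -0.098 in complex III and 0.047 in the Ndufaf genes.

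Complex I, which oxidizes NADH, had 0 of its 35 tested subunits called in heterozygous tumors, and 7 (20%) passed at an unadjusted p under 0.05, beside 39.1% of all genes. The log2 differences ran from -0.54 to 0.40 with a median of 0.016, and 8 subunits (22.9%) lay above and 7 (20%) below both normal samples in all 4 heterozygous tumors, beside 25.4% and 25.6% of all genes. Ndufs1, an iron-sulfur subunit of the NADH-oxidizing arm, read 10.55 and 10.52 in normal pituitary, 10.20, 10.19, 10.32 and 10.42 in the heterozygous tumors and 10.35 in the homozygous tumor. Ndufv1, which binds NADH and the flavin cofactor, read 10.72 in both normal samples, 11.11, 11.08, 11.21 and 10.87 in the heterozygous tumors and 10.87 in the homozygous tumor. These core subunits of the same arm thus lay on opposite sides of normal pituitary, with log2 differences of -0.25 ± 0.12 (SE) and 0.35 ± 0.13 and adjusted p of 0.165 and 0.09. A different probe set of Ndufv1 was called, at 0.57, so the probe sets of that gene gave different calls in the same direction.

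Among the accessory subunits of complex I, Ndufb2 and Ndufb9 of the membrane arm lay on opposite sides of normal pituitary. Ndufb2 read 11.45 and 11.47 in normal pituitary, 10.92 to 11.22 in the heterozygous tumors and 10.97 in the homozygous tumor. Ndufb9 read 11.08 and 11.09, then 11.39 to 11.64, then 11.42. For neither gene did tumors and normal samples overlap on these probe sets, and the adjusted p values were 0.052 and 0.0506, just outside the threshold. A second probe set of Ndufb9, about as bright, differed by 0.06 with an adjusted p of 0.749, and 1 of the 4 heterozygous samples lay above both normal samples there. Ndufb6, also of the membrane arm, differed by 0.45 in the homozygous tumor with an adjusted p of 0.364, and by 0.37 in heterozygous tumors with 0.141, while its second probe set gave 0.10 in the homozygous tumor (adjusted p = 0.814) and had an adjusted p of 0.994 in heterozygous tumors. Ndufa1, an accessory subunit needed for assembly, read 13.15 and 13.04 in normal pituitary and between 12.81 and 13.15 in the tumors, so the groups overlapped.

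Ndufa4, named as a complex I subunit but since placed in complex IV, had the most negative difference under this heading. It read 11.58 and 11.23 in normal pituitary, 10.53, 10.87, 11.13 and 10.91 in the heterozygous tumors and 11.27 in the homozygous tumor. The heterozygous difference was -0.54 ± 0.19 (SE), with an adjusted p of 0.0769, and the homozygous sample fell between the normal ones. Ndufa4l2, its hypoxia-inducible paralog, read 6.39 and 6.38, then 7.02, 6.69, 6.63 and 6.70, then 6.54. That difference was 0.37 ± 0.14 with an adjusted p of 0.0969, and all 5 tumor samples lay above both normal samples.

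Assembly factors build complex I without staying in it, and of the 8 Ndufaf genes 1 was called (12.5%), beside 24.2% of all genes. At an unadjusted limma p under 0.05, 3 (37.5%) passed, beside 39.1% of all genes. Ndufaf2, a chaperone of late assembly, read 7.66 and 7.77 in normal pituitary, 8.08, 8.33, 8.33 and 8.44 in the heterozygous tumors and 8.15 in the homozygous tumor. It rose by 0.58 ± 0.13 (SE), a 1.5-fold change, with an adjusted p of 0.0198, and no tumor sample overlapped the normal ones. The call was lost with the level of Xist, the female-expressed noncoding RNA, as a covariate. Xist was low in heterozygous samples 1 and 3 and both normal samples (4.57 to 5.07) and high in heterozygous samples 2 and 4 and the homozygous sample (10.93 to 11.25). Ndufaf3 had values close together in the tumors, 9.70 to 9.74 in the heterozygous and 9.77 in the homozygous, against 9.29 and 9.44, with an adjusted p of 0.0514. Ndufaf7, a methyltransferase, lay on the other side, at 8.31 and 8.33 in normal pituitary and 7.77 to 8.14 in the tumors, with an adjusted p of 0.0993. Ndufaf8 differed by 0.10 with an interval of -0.17 to 0.37.

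Complex II, which oxidizes succinate and also belongs to the tricarboxylic acid cycle, had 0 of 4 subunits called and 0 passing at an unadjusted p under 0.05. Sdha, the flavoprotein, read 11.15 and 11.41 in normal pituitary, 11.03, 11.01, 11.06 and 11.24 in the heterozygous tumors and 11.26 in the homozygous tumor, and the groups overlapped. Sdhb, the iron-sulfur subunit, differed by 0.03 with an interval of -0.23 to 0.29. Sdhc, a membrane anchor, spread from 9.77 to 10.42 in the heterozygous tumors and from 9.52 to 10.02 in normal pituitary, and its interval of -0.19 to 0.80 was the widest of the 4. A dimmer probe set of Sdhc differed by -0.08.

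Complex III passes electrons from coenzyme Q to cytochrome c, and 0 of its 9 genes were called, with 2 (22.2%) passing at an unadjusted p under 0.05, beside 39.1% of all genes. Cyc1, the heme-bearing subunit, differed by 0.01 (interval -0.31 to 0.32), Uqcrfs1, the Rieske iron-sulfur protein, by 0.02 (-0.29 to 0.34) and Uqcrc1, a core protein, by -0.04 (-0.43 to 0.35). Uqcrc2, the other core protein, gave 0.24 in heterozygous tumors and 0.34 in the homozygous tumor, with adjusted p of 0.426 and 0.582, and a second probe set gave -0.06 in heterozygous tumors. Of the small subunits, Uqcrb, Uqcrq, Uqcr10 and Uqcr11 lay below both normal samples in all 4 heterozygous tumors, 4 of the 9 genes (44.4%) beside 25.6% of all genes. Uqcrb read 13.70 and 13.62 in normal pituitary and 13.24, 13.39, 13.40 and 13.49 in the heterozygous tumors, a difference of -0.28 ± 0.12 with an adjusted p of 0.128. Uqcr10 differed by -0.33 (adjusted p = 0.0958) and Uqcrq by -0.28 (0.157). Dimmer probe sets of Uqcrb and Uqcr10 overlapped the normal samples and differed by -0.01 for Uqcrb and by 0.02 and 0.08 for Uqcr10.

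Complex IV, cytochrome c oxidase, reduces oxygen. Beside 24.2% of all genes, 3 of its 15 tested nuclear genes (20%) were called in heterozygous tumors, 1 higher and 2 lower. The broadly expressed structural subunits Cox4i1 and Cox5a were not among them. At an unadjusted limma p under 0.05, 5 genes of the complex (33.3%) passed, beside 39.1% of all genes. Cox4i1 read 12.53 and 12.61 in normal pituitary and 12.53 to 12.70 in the tumors, a difference of 0.04 with an interval of -0.21 to 0.30. Cox5a spread from 10.81 to 11.49 in the heterozygous tumors alone, which covered both normal samples at 10.88 and 11.20. Cox7a2, the widely expressed form of its subunit, read 13.37 and 13.46 in normal pituitary and 13.34 to 13.48 in the heterozygous tumors.

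Cox6c, a small nuclear subunit, had the lowest adjusted p of the 88 genes. It read 12.86 and 12.97 in normal pituitary, 12.34, 12.25, 12.32 and 12.28 in the heterozygous tumors and 12.39 in the homozygous tumor. All 5 tumor samples lay below both normal samples, and the 4 heterozygous ones lay within 0.1 log2 units of each other. It fell by 0.62 ± 0.10 (SE) in heterozygous tumors, a 1.54-fold change, with an adjusted p of 0.00634. The homozygous difference was -0.53 ± 0.15 with an adjusted p of 0.114, the lowest of the 88 genes in that comparison. A second probe set of Cox6c differed by -0.32 in heterozygous tumors with an adjusted p of 0.133.

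Cox7c, another small subunit, read 6.62 and 6.78 in normal pituitary, 5.90, 6.15, 6.23 and 6.32 in the heterozygous tumors and 6.21 in the homozygous tumor. It fell by 0.55 ± 0.14 (SE), with an adjusted p of 0.0328. These values lay close to the overall median of 5.74, and the array names no brighter probe set with this gene alone, so the call rests on a dim probe set.

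The forms of complex IV subunits known from muscle, testis or lung were taken as a list of their own, with Ndufa4l2. Of the 8 listed, 6 were tested and 1 was called in heterozygous tumors (16.7%), beside 24.2% of all genes. At an unadjusted limma p under 0.05, 4 of the 6 (66.7%) passed, beside 39.1% of all genes. Cox6b2, known from testis, read 6.22 and 6.72 in normal pituitary, 8.56, 8.15, 6.90 and 8.01 in the heterozygous tumors and 7.23 in the homozygous tumor. All tumor samples lay above both normal samples, with heterozygous sample 3 the nearest to them. It rose by 1.44 ± 0.42 (SE), a 2.71-fold change, with an adjusted p of 0.0479, and the homozygous difference was 0.77 with an adjusted p of 0.555. The call was lost without heterozygous sample 1, 2 or 4, without either normal sample, with Xist as a covariate and with no filter on low values, and the difference ranged from 1.19 to 2.10 over the alternatives. Its common counterpart Cox6b1 differed by -0.14 with an interval of -0.42 to 0.13.

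Cox8b, the form known from heart and skeletal muscle, had a larger mean difference than Cox6b2 but was not called. It read 5.41 and 5.97 in normal pituitary, 6.15, 7.37, 7.09 and 8.38 in the heterozygous tumors and 5.82 in the homozygous tumor. The heterozygous samples all lay above the normal ones, but they spanned more than 2 log2 units, and the difference of 1.56 ± 0.53 (SE) had an adjusted p of 0.0753. The homozygous sample lay between the normal ones. Of 10 skeletal muscle markers, 9 were below the overall median in every sample, and the remaining marker, Myl1, fell by 1.54 in heterozygous tumors. Of 4 brown fat markers, Ucp1 and Adipoq were also below that median in every sample, Ppara fell by 0.58 in heterozygous tumors (adjusted p = 0.0259) and Cidea differed by -0.78 (adjusted p = 0.121).

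The other muscle forms did not share the range of Cox8b. Cox7a1 read 5.48 and 6.02 in normal pituitary and 5.10, 5.87, 5.40 and 5.86 in the heterozygous tumors, and the groups overlapped. Cox6a2 differed by 0.19 with an interval of -0.08 to 0.46. Cox8c, known from testis, read 7.24 and 7.49 in normal pituitary, 6.94 to 7.14 in the heterozygous tumors and 7.37 in the homozygous tumor, a heterozygous difference of -0.32 with an adjusted p of 0.101. The common Cox8a differed by -0.09.

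**Figure D2:**
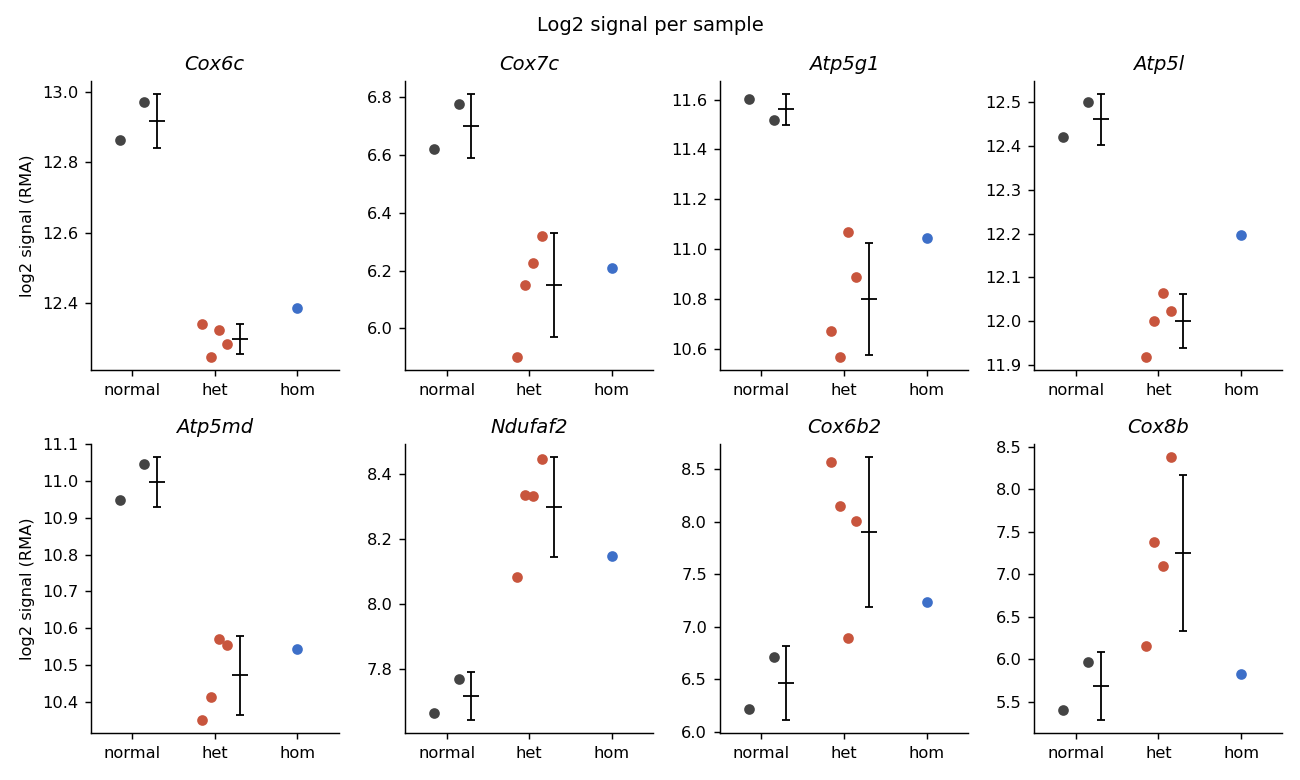
Log2 signal in each sample for the 7 called genes and Cox8b, with normal samples in gray, heterozygous tumors in red and the homozygous tumor in blue. Points are samples, bars show mean ± SD for groups of more than 1 sample, and each panel has its own axis that does not start at 0. In Cox6c the 4 heterozygous tumors lie together below normal pituitary, whereas Cox6b2 and Cox8b spread widely.

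Complex V had 3 of its 17 genes called in heterozygous tumors (17.6%), all lower, beside 24.2% of all genes called and 11.5% lower. At an unadjusted limma p under 0.05, 7 (41.2%) passed, beside 39.1% of all genes. Differences across the complex ran from -0.76 to 0.46 with a median of -0.035, 7 of them positive and 10 negative. The subunits of the catalytic head were not called. Atp5a1, the alpha subunit, read 12.35 and 12.56 in normal pituitary and 12.23 to 12.49 in the heterozygous tumors, a difference of -0.09. Atp5b, the beta subunit that carries the catalytic sites, read 12.28 and 12.67 in normal pituitary and 12.60 to 12.82 in the heterozygous tumors, a difference of 0.22 with an interval of -0.11 to 0.56. Atp5e, also outside the membrane portion, differed by 0.35 with an adjusted p of 0.0564. All 4 heterozygous samples lay above both normal samples in Atp5e.

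The called genes of complex V encode parts of its membrane portion. Atp5l and Atp5md encode small subunits of the region where ATP synthase dimers meet. Atp5l read 12.42 and 12.50 in normal pituitary, 11.92, 12.06 and 12.02 in heterozygous samples 1, 3 and 4, with sample 2 between them, and 12.20 in the homozygous tumor. Atp5md read 10.95 and 11.05, then 10.35, 10.41, 10.57 and 10.55, then 10.54. In both genes every tumor sample lay below both normal samples. Atp5l fell by 0.46 ± 0.11 (SE, adjusted p = 0.021) and Atp5md by 0.52 ± 0.12 (adjusted p = 0.0187). Atp5j2, also a membrane subunit, differed by -0.34 with an adjusted p of 0.0644, and a second probe set of it was called at -0.40. Not all membrane subunits were lower. Atp5k differed by -0.03 (adjusted p = 0.856) and Atp5mpl by -0.06 (adjusted p = 0.736).

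Subunit c, which forms the rotating ring of ATP synthase, is made from Atp5g1, Atp5g2 and Atp5g3, whose precursors differ but yield the same mature protein. Atp5g1 fell, Atp5g2 lay above normal pituitary without a call, and Atp5g3 stayed near it. Atp5g1 read 11.60 and 11.52 in normal pituitary, 10.67, 10.57, 11.07 and 10.89 in the heterozygous tumors and 11.04 in the homozygous tumor. Every tumor sample was below both normal samples, and the gene fell by 0.76 ± 0.16 (SE) in heterozygous tumors, a 1.69-fold change, with an adjusted p of 0.0149. The homozygous difference was -0.52 with an adjusted p of 0.288.

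Atp5g2 lay on the other side of normal pituitary. It read 11.59 and 11.93 in normal pituitary, 12.42, 12.15, 12.13 and 12.17 in the heterozygous tumors and 12.14 in the homozygous tumor. All 5 tumor samples were above both normal samples, and the heterozygous difference of 0.46 ± 0.15 (SE) had an adjusted p of 0.0596. Atp5g3 read 12.93 and 13.01, then 12.86, 12.79, 12.99 and 12.85, then 12.91, a heterozygous difference of -0.09 with an interval of -0.35 to 0.17. The difference between the 3 genes was not itself tested.

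**Figure D3:**
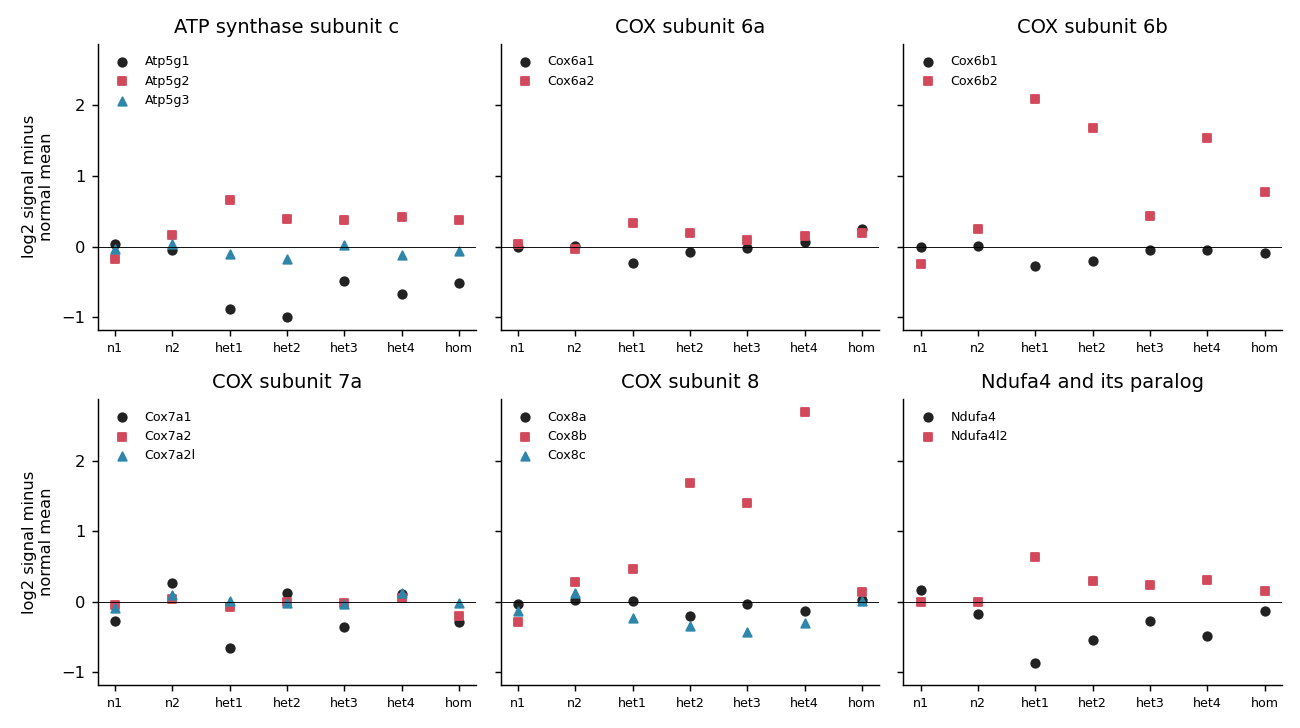
Log2 signal minus the mean of the 2 normal samples for genes that encode forms of the same subunit, in each of the 7 samples (n, normal, het, heterozygous, hom, homozygous). Each point is 1 gene in 1 sample and all panels share an axis. Atp5g1 and Atp5g2 lie on opposite sides of 0 in every tumor sample, and Cox6b2 and Cox8b stand above their common counterparts in the heterozygous tumors.

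Because the 3 subunit c genes make the same protein from separate promoters, the 120 bases before each transcription start are shown, from the RefSeq promoter table of build GRCm38.p6. All lie on the minus strand and are written 5′ to 3′. Capitals mark GCATGCGC, the core of the site of NRF1, a factor known to act on respiratory chain genes.
Atp5g1, chr11:96075632-96075751: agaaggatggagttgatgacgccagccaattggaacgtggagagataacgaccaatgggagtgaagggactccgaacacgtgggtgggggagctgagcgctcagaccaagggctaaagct
Atp5g2, chr15:102671048-102671167: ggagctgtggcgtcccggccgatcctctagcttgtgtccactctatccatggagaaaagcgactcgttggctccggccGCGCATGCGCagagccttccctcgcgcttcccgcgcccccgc
Atp5g3, chr2:73911327-73911446: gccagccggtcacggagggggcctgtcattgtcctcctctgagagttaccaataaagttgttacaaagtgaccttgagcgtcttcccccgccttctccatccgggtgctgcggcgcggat
The Atp5g2 window holds the core once on each strand, the copies overlapping, from position -42 relative to the start. Neither of the other windows holds it.

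Of the 91 genes, 74 had promoters in that table, 79 promoters in all. Each was searched over the 250 bases before the start, on both strands. The NRF1 core GCATGCGC was present in 8 of the 79 (10.1%) and in 2.26% of all 32851 promoters. The ETS site CCGGAAGT was present in 3 (3.8%), beside 2.88% of all promoters, and the YY1 site AAGATGGC in 1 (1.27%), beside 1.56%. Among the 6 called genes with an entry, Atp5l held the NRF1 core. Cox6c had no entry. These are matches of letters and do not show binding.

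The heterozygous tumors differed among themselves across the chain. Samples 1 and 2 gave the lowest of the 4 values in 41 and 32 of the 88 genes (46.6% and 36.4%), beside 29.3% and 16.1% of all genes. Samples 3 and 4 gave the highest in 41 and 31 genes (46.6% and 35.2%), beside 23% and 28.9% of all genes. The median over the 88 genes, relative to the normal mean, was -0.066 in sample 1, -0.071 in sample 2, 0.046 in sample 3 and 0.049 in sample 4. It was 0.009 in the homozygous sample, and the normal samples lay at -0.043 and 0.043. The difference between the upper and the lower tumors was thus of the order of that between the normal samples. Xist did not follow this split, and the mean of the macrophage markers was 8.50, 8.99, 8.63 and 8.33 in samples 1 to 4.

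**Figure D4:**
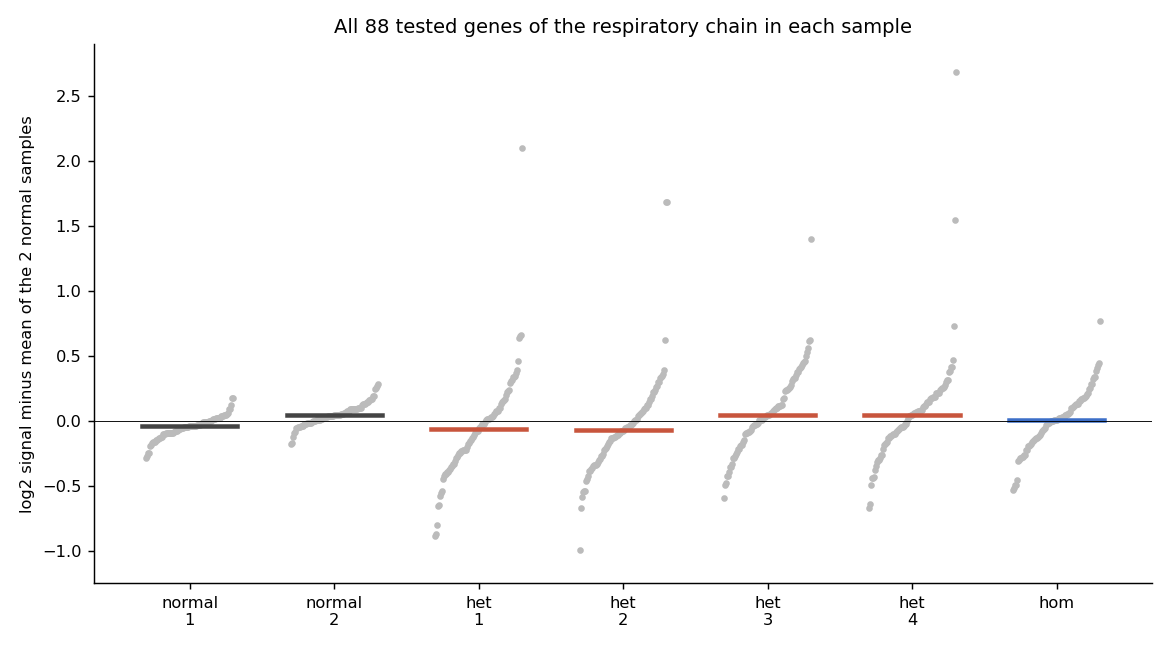
Log2 signal minus the mean of the 2 normal samples for all 88 tested genes in each sample, ordered by value within the sample. Each gray point is 1 gene and the colored line is the median. The medians stay between -0.071 and 0.049, and the points above 1 are Cox6b2 and Cox8b.

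The homozygous tumor had a median difference from normal pituitary of 0.009, beside -0.028 over all genes, and a median size of 0.140, beside 0.233. That size was 0.144 for the mitochondrial ribosome and 0.102 for 8 housekeeping genes. In 85 of the 88 genes (96.6%) the difference lay within 0.5 log2 units, beside 78.9% of all genes. With 1 sample its intervals were wider, reaching a median of 0.406 to either side of the estimate, against 0.287 for the heterozygous tumors. Its differences for the genes called in heterozygous tumors were -0.26 for Atp5l, -0.45 for Atp5md, -0.52 for Atp5g1, -0.49 for Cox7c, -0.53 for Cox6c, 0.43 for Ndufaf2 and 0.77 for Cox6b2. Both comparisons use the same normal samples, so these values are not independent of the heterozygous ones. Against the heterozygous tumors the homozygous sample was most distant in Cox8b, at -1.42 with an adjusted p of 0.606, then in Cox6b2, at -0.67 with 0.825, and in Ndufa4, at 0.41 with 0.704.

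Other mitochondrial gene lists were read in the same fit, in which 24.2% of all genes were called in heterozygous tumors, 12.7% higher and 11.5% lower. Of 76 genes of the mitochondrial ribosome, which translates the subunits encoded in mitochondrial DNA, 5 rose and 1 fell in heterozygous tumors (7.89%), with a median of 0.060. Mrpl52 rose by 0.67 and Mrpl40 by 0.51, while Mrpl1 fell by 0.48. Of 35 further assembly factors, of complex I and of the other complexes, 3 were called (8.57%). Bcs1l, which inserts the Rieske protein into complex III, rose by 0.51, Atpaf2, which helps build the head of ATP synthase, rose by 0.46, and Cox16, of complex IV assembly, fell by 0.47. Of 13 tricarboxylic acid cycle genes 0 were called by limma and 2 passed at an unadjusted p under 0.05.

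The pyruvate dehydrogenase list had 2 of 11 genes called in heterozygous tumors (18.2%), beside 24.2% of all genes. At an unadjusted limma p under 0.05, 5 (45.5%) passed, beside 39.1% of all genes. The median size of the difference was 0.246, beside 0.262 over all genes. Pdk4, a kinase that shuts down pyruvate dehydrogenase, read 7.58 and 7.64 in normal pituitary, 5.43, 5.86, 4.93 and 5.57 in the heterozygous tumors and 5.74 in the homozygous tumor. It fell by 2.16 (adjusted p = 0.00125) and by 1.87 (adjusted p = 0.0377). Pdk1, a related kinase, rose by 0.65 in heterozygous tumors (adjusted p = 0.0337), and the phosphatase Pdp2 fell by 0.75 in the homozygous tumor (adjusted p = 0.0488). In the homozygous tumor Pdk4 and Pdp2 were the calls of that list, 2 of 11 genes (18.2%), beside 3.18% of all genes. Coq8a, needed for coenzyme Q synthesis, rose by 1.08 (adjusted p = 0.00209), the only call among 16 genes of its list (6.25%).

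Of 21 genes for carriers, porins and protein import, 3 were called in heterozygous tumors (14.3%), beside 24.2% of all genes. Hspa9, Slc25a5 and Timm50 rose in heterozygous tumors, by 0.49, 0.46 and 0.49. Slc25a13, an aspartate-glutamate carrier, rose by 0.99 in the homozygous tumor. It was the only call of that list there, 1 of 21 genes (4.76%), beside 3.18% of all genes. Of 8 genes for uncoupling and superoxide defence, 1 was called in heterozygous tumors (12.5%), as Txn2, the mitochondrial thioredoxin, fell by 0.44. Of 17 regulators of mitochondrial biogenesis and mitochondrial DNA maintenance, 3 were called (17.6%). Nrf1 rose by 0.49, Polg2, an accessory subunit of the mitochondrial DNA polymerase, rose by 0.87, and the nuclear receptor Esrra fell by 0.43. In the homozygous tumor 0 genes of the ribosome, assembly, tricarboxylic acid cycle, coenzyme Q, superoxide and biogenesis lists were called by limma, with 5, 1, 0, 2, 1 and 2 at an unadjusted p under 0.05, which 19.2% of all genes passed.

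**Figure D5:**
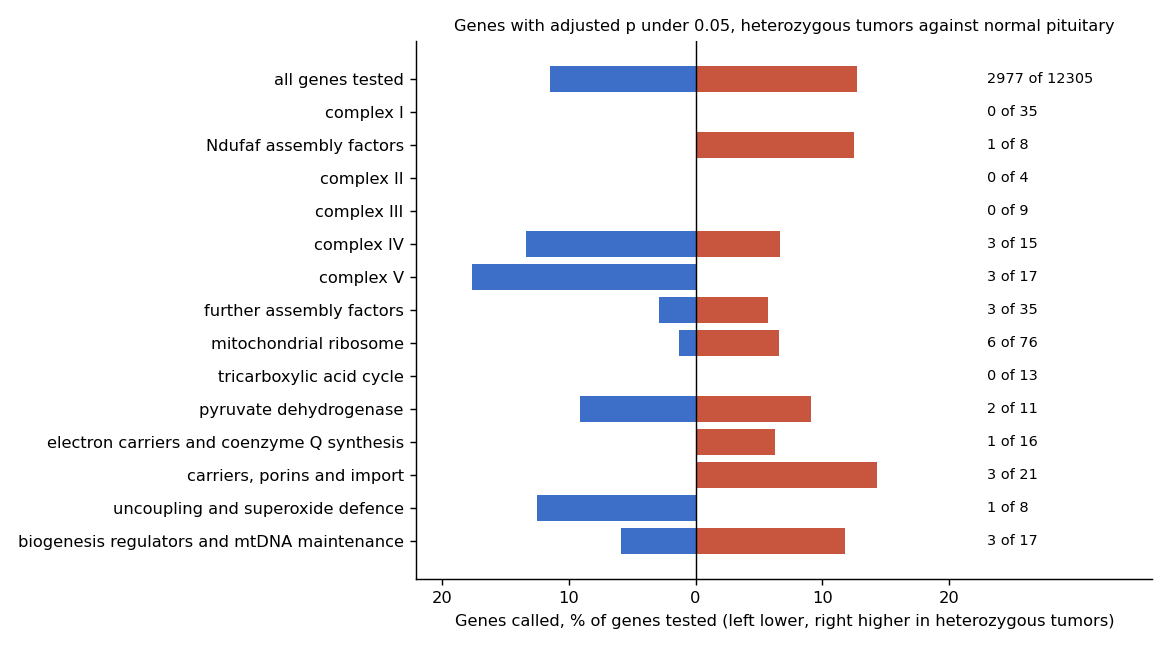
Share of tested genes called in heterozygous tumors against normal pituitary, for all genes, for each complex and for the other mitochondrial lists, in percent. Bars to the left are genes that fell and bars to the right genes that rose, and the counts at the right give called of tested. Complexes I, II and III and the tricarboxylic acid cycle have no bar.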

How the data were processed

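The values are the log2 signals deposited by the authors in the series table, made by Robust Multichip Average, which corrects background, equalizes the arrays' distributions and summarizes each probe set. The labels name Affymetrix Expression Console for it and the study's methods GeneSpring GX, which also applied detection calls not used here. RMA forces arrays to 1 distribution, so a change shared by all genes would not be seen, and the number of samples and the spread between them limit the precision. Probe sets were named from the platform annotation. Of 45101 probe sets, 34958 name 1 gene, and 932 that name several were left out, 10 of them for respiratory chain genes, with every probe set of Ndufs6 and Ndufa11 among them. A probe set was tested where at least 2 arrays reached the median of all values, 5.74, which left 24486 probe sets and 12305 genes. Fold changes are differences of log2 values.

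Limma 3.58.1 in R 4.3.3 (lmFit, eBayes) was fitted to all 7 samples, with 4 residual degrees of freedom. The homozygous sample is assumed to vary like the other groups. The p-values, adjusted over all probe sets, measure the spread between these samples, which is technical where they are not separate animals. The fit was tested on simulated data. The 88 genes stand on 14 probe sets ending in _s_at and 3 in _x_at, which can detect related transcripts. A total of 69 further tested probe sets gave 4 calls in heterozygous tumors, Ndufab1 (0.72) and Ndufv1 higher, Atp5j2 and Cox5b (-0.46) lower.

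The genes and lists were chosen with earlier results of these data known. Named genes are those called with a fold over 2, the 3 largest differences and the brightest gene of each complex, tissue-restricted forms and core subunits. Atp5l, and genes given only by value to complete a subunit group, fall outside this rule and were named after their values were seen. Promoters came from RefSeq. Alternatives were separate arrays, random and replicate blocks, filters, scalings, probe set choices, Xist, variance settings and leaving out samples.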

Additional observations from a re-analysis of the deposited data

Results flagged for a closer look

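Atp5g2, which encodes subunit c of ATP synthase, read 12.42 in heterozygous sample 1, against 12.13 to 12.17 in the other 3 heterozygous tumors. The gap to the nearest tumor was 0.864 of the whole range of the 4. Uqcrfs1, the Rieske protein of complex III, read 11.25 in heterozygous sample 2, against 11.37 to 11.39 in the others, a gap of 0.836 of the range. In both genes 1 tumor stood apart from the other 3 relative to the range of the 4. For Uqcrfs1 that range was small, and the value lay between the normal samples, at 11.135 and 11.511. Chance alone sets apart about 1 in 20 groups, and here 2 of 39 named genes and 4 of all 88 tested genes were so marked.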

How the results depend on the processing

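Of the 7 genes called in heterozygous tumors, all remained with the 12 arrays as separate samples (29 of 88 called) and the pair as a random block (18). All also remained with a replicate block on the array numbers (34) and trend and robust variance settings (14). The share of all genes called rose in each, from 24.2% to 39.9%, 29.3%, 48.9% and 26.2%. The replicate block compares only arrays that share a number across groups. The correlations of same-numbered deviations were -0.110 to 0.102, so the numbers do not pair the samples. In the homozygous tumor the main count of 0 became 5, 1, 14 and 1 under these settings, beside 19.3%, 6.83%, 35% and 3.41% of all genes. Cox6c was the gene called in the random block and the trend and robust fit. Between homozygous and heterozygous tumors the count became 18 of 88 under the replicate block, beside 35.8% of all genes. Cox5a, at -0.001 in the main fit, was called there at 0.356. Filters, scalings, probe set choices and Xist gave 5 to 10 called genes in heterozygous tumors, beside 18.5% to 25.3% of all genes. These settings gave 0 in the other comparisons. Leaving out 1 sample gave 0 to 8 called genes in heterozygous tumors and medians from -0.065 to 0.059 (0.059 without normal sample 2). For the homozygous tumor the counts stayed at 0, with medians from -0.056 to 0.060, and against the heterozygous tumors at 0, with medians from -0.008 to 0.060. The cause of these moves was not tested. With 2 normal samples, the sign of the median is not settled.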
